A study of Arabidopsis thaliana with 24 samples.

Results

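The change studied here was the passage of wild type Arabidopsis thaliana hypocotyl explants, accession Columbia (Col-0), into callus. The members were the 6 wild type libraries labelled 0 d or CIM 4 d, 3 of each, out of 24 libraries in the series. The freshly cut group held hypocotyl pieces of about 10 mm from seedlings grown with 1% sucrose in darkness for 7 days at 22 °C, taken up to 15 min after excision. The callus group held such pieces after 4 days in constant light on callus-inducing medium (CIM), a Gamborg medium whose hormones were 2,4-D, a synthetic auxin, at 0.5 µg/ml and kinetin, a cytokinin, at 0.05 µg/ml. Wounding, hormones, medium, light and age therefore differed together between the groups, and their parts in any difference cannot be told apart. The other 18 libraries were wild type explants moved on to shoot-inducing medium (SIM) for 4 or 6 days and the same 4 stages of siz1-2, a mutant of the SUMO E3 ligase gene SIZ1. The siz1-2 libraries at 0 d and CIM 4 d give a second set of the same transition.

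Callus of Arabidopsis on auxin-rich medium is known to grow from pericycle-like cells beside the vasculature, through a programme close to that of lateral root initiation. In that programme the auxin response factors ARF7 and ARF19 switch on LBD transcription factors, and the dividing tissue takes up genes of the root meristem such as WOX5 and the PLETHORA (PLT) genes. A dark-grown hypocotyl is a non-dividing organ that lengthens by cell expansion under PIF transcription factors and holds a closed endodermis with its Casparian strip.

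Values are reads per 1000000 library reads (rpm), which are not scaled by gene length, so that levels were compared within a gene and not between genes. Totals of the 6 wild type libraries at 0 d and CIM 4 d ranged from 7979350 to 12085150 reads. Of 25960 genes, 20361 reached 1 rpm in at least 3 of the 24 libraries of the series and were tested with limma on log2(rpm + 1). The deposited scale placed the median gene 0.35 higher on the log2 scale at CIM 4 d, whereas median-of-ratios rescaling placed it at -0.008. A gene is said below to have risen or fallen where its Benjamini-Hochberg adjusted p was under 0.05 in the same direction on both scales. Tested genes without such a call did not pass the test, whichever scale failed. The filter took in all 24 libraries, so some tested genes had no read in the 6 studied here and could not be called. Fold changes are log2 differences on the deposited scale with their standard error, and list medians are to be read against 0.35. Whether the replicates came from separate cultures is not in the labels, so the tests speak for the spread of these libraries, which may be technical. Explants are whole tissue, so that fewer cells of a type and less RNA per cell cannot be told apart.

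In each group 1 library stood apart from its replicates, clearly at CIM 4 d and mainly in some genes at 0 d. At CIM 4 d this was replicate 2, in which salicylic acid and defence genes summed to 1457 rpm against 142 and 143 rpm in replicates 1 and 3, and whose chi-square per gene against them was 32.9 and 32.2 where replicates 1 and 3 gave 2.88 against each other. At 0 d it was replicate 1, in which photosynthesis genes summed to 2334 rpm against 359 and 419 rpm. Its chi-square per gene was only 9.34 and 8.9 against replicates 2 and 3, which gave 7.46 against each other. The 0 d library was thus set apart by genes seen to differ and hardly by its profile as a whole. PORA, a protochlorophyllide reductase gene below the test filter, was at 119.7, 0.349 and 1.09 rpm in the 3 cut libraries. In the same library PDF1, an epidermal layer marker, was at 68.8 rpm against 3.93 and 13 rpm, and the gibberellin-responsive GASA4 at 215 rpm against 14 and 17 rpm. Counts without both libraries are given wherever they differ by more than 1.5 times.

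Most genes tested differed between 0 d and CIM 4 d. Of 20361 genes, 7244 rose (35.6%) and 5417 fell (26.6%). All list and family counts below are to be read against these shares. The family counts were all added after the values had been seen. At 2-fold or more on both scales, 3459 genes rose (17.0%) and 3060 fell (15.0%), and at 4-fold or more 866 rose (4.25%) and 1293 fell (6.35%). Under the rule of both scales, rises outnumbered falls over all calls and at 2-fold, and falls outnumbered rises at 4-fold. The order over all calls depended on the scale, as the counts for each scale below show. The 3 CIM libraries all lay above the 3 cut ones for 49.7% of genes and all below for 27.3%, on the deposited scale. The deposited scale alone called 10003 higher and 5417 lower, 64.9% of calls being higher, and the median-of-ratios scale 7244 higher and 7665 lower, 48.6% being higher. Without both libraries that stand apart, 7007 rose and 5087 fell; 6195 rises and 4591 falls were called in every fit that left out 1 of the 6 libraries.

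The reads also became less concentrated. At 0 d the 10 genes with the most reads took 9.13% of them and 1010 genes held 50%, whereas at CIM 4 d the first 10 took 3.21% and 1511 genes held 50%. The largest losses in mean level were those of PYK10, CAT3, AT2G37130, TIP2, AT4G23670 and MLP28. PYK10 fell from 22351, 22345 and 20575 rpm to 5073, 4191 and 4741 rpm (log2 fold change -2.22 ± 0.19, adjusted p = 1.56e-09). PYK10 encodes a beta-glucosidase of the endoplasmic reticulum bodies of seedlings. The catalase gene CAT3 fell from 14710.1, 15414 and 15134 rpm to 561, 193 and 582 rpm (log2 fold change -5.24 ± 0.26, adjusted p = 7.21e-13). The tonoplast aquaporin gene TIP2 fell from 9933, 8922 and 10588 rpm to 191, 104 and 180.1 rpm (log2 fold change -5.99 ± 0.20, adjusted p = 2.24e-15). In these 3 genes the 3 libraries of each group lay far apart from those of the other, as the plot of group means shows.

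**Figure D1:**
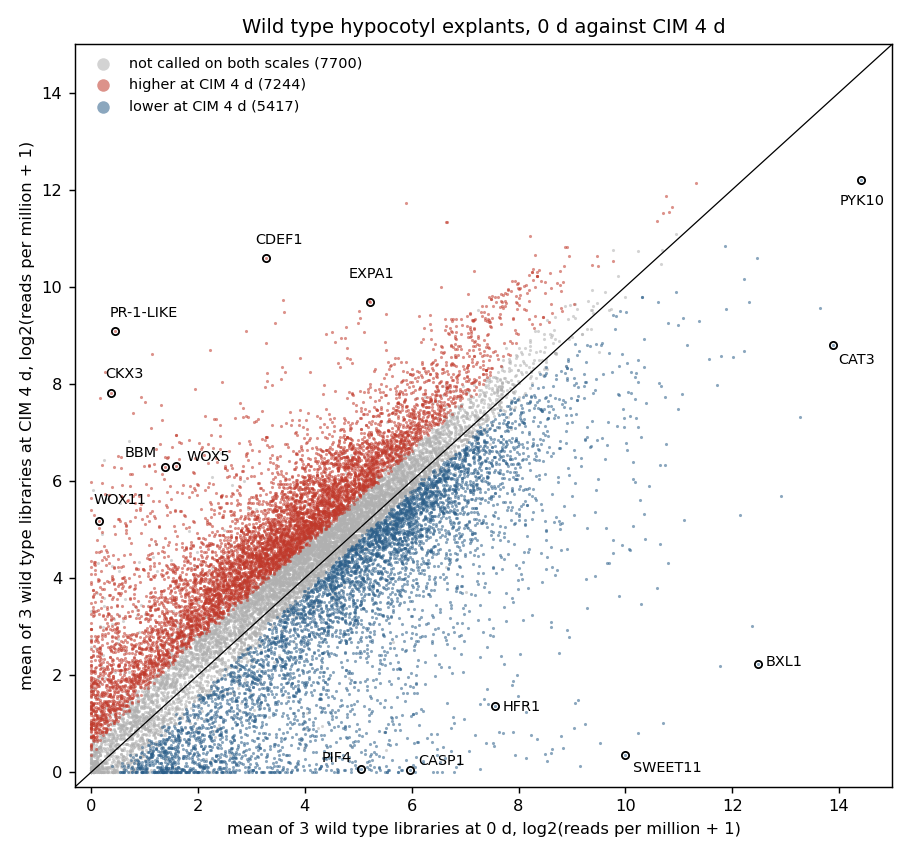
Mean level of each of the 20361 tested genes at 0 d (horizontal axis) and CIM 4 d (vertical axis) in wild type, both as log2(rpm + 1), each a mean of 3 libraries; red genes were higher and blue genes lower at CIM 4 d on both scales, and the line marks equal values. BXL1 and SWEET11 lie far below the line and CDEF1, CKX3 and PR-1-LIKE far above it.

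**Figure D2:**
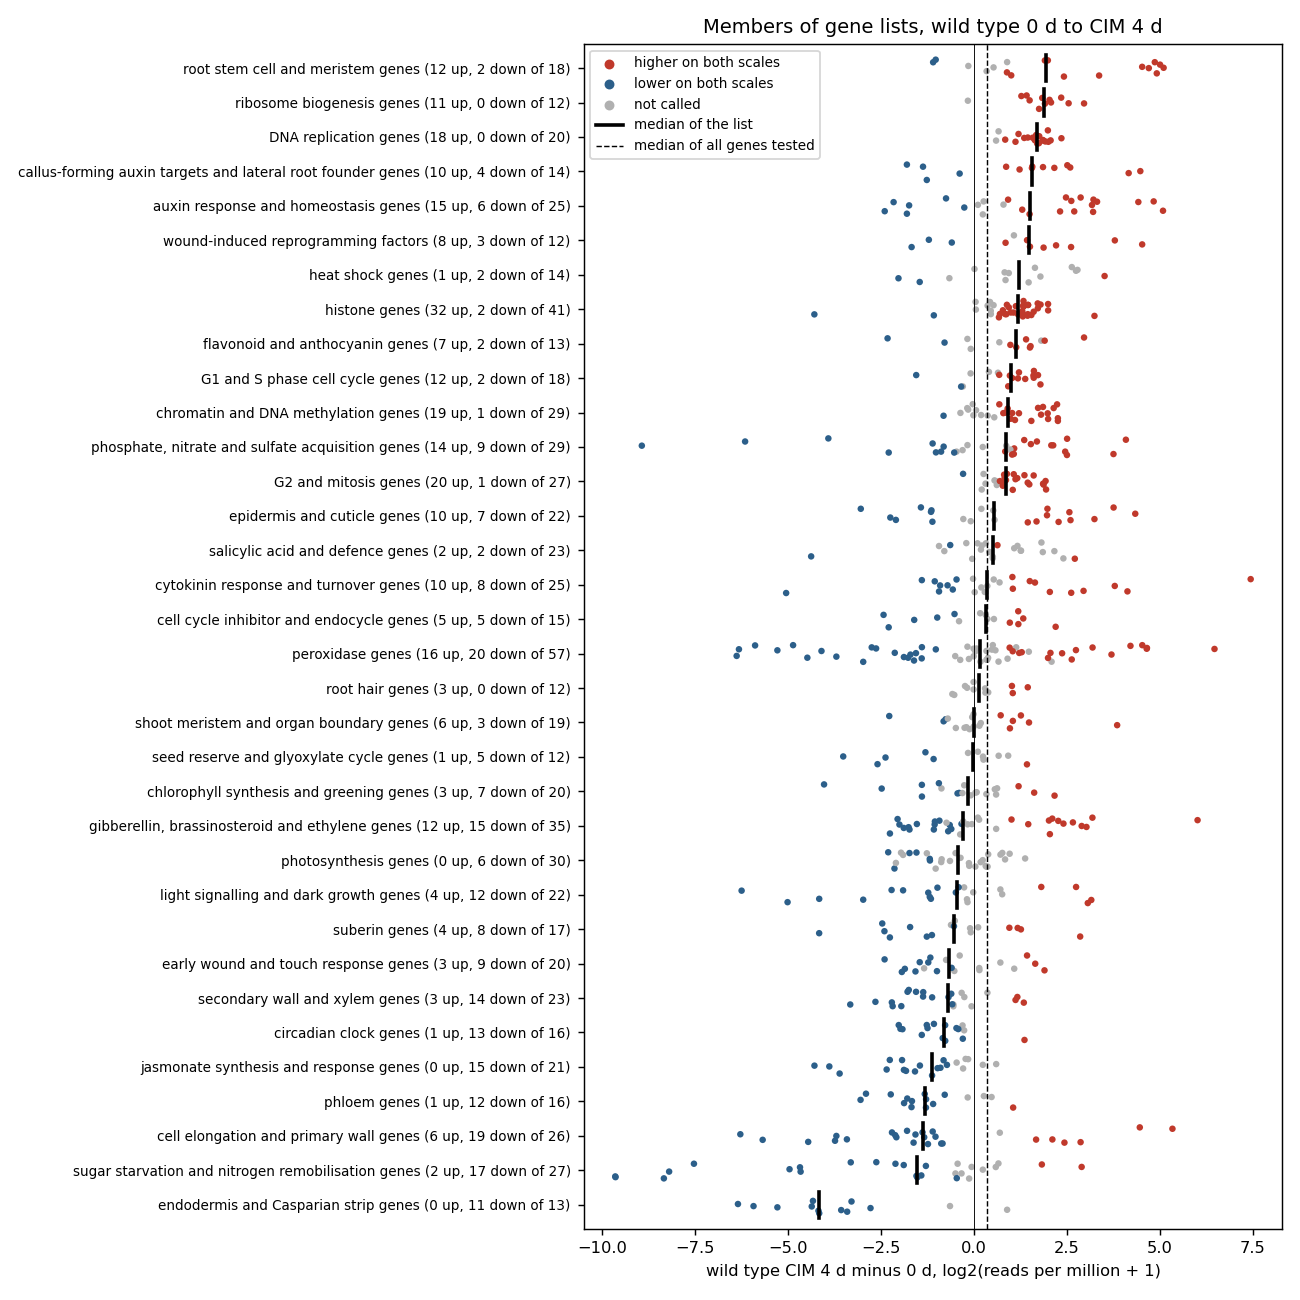
Log2 fold change (CIM 4 d minus 0 d) of every tested member of 34 gene lists, ordered by list median, with the number of members higher and lower on both scales; black bars are list medians and the dashed line is the median of all genes tested, 0.35. Root stem cell, ribosome biogenesis and DNA replication genes lie to the right and endodermis, sugar starvation and cell elongation genes to the left.

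Most genes of the founder cell programme rose. Of the 14 callus-forming auxin targets and lateral root founder genes tested, 10 rose and 4 fell, with a median log2 fold change of 1.57, against 35.6% higher and 26.6% lower of all genes. Some LBD products drive callus formation downstream of ARF7 and ARF19. Of the 23 LBD genes tested in the whole family, 10 rose and 6 fell. LBD16 rose from 20.6, 18.8 and 19.8 rpm to 106, 128 and 120.4 rpm (log2 fold change 2.52 ± 0.23, adjusted p = 3.34e-09). LBD18 rose from 2.48, 2.62 and 3.5 rpm to 71.1, 117 and 73.6 rpm (log2 fold change 4.48 ± 0.25, adjusted p = 2.54e-12), and LBD17 rose from 0.745, 1.22 and 0.547 rpm to 12.3, 6.08 and 13.2 rpm. The 3 CIM libraries lay above the 3 cut libraries for LBD16, LBD17 and LBD18. PUCHI rose from 4.14, 3.75 and 5.03 rpm to 71, 152 and 77.1 rpm (log2 fold change 4.17 ± 0.28, adjusted p = 4.3e-11); PUCHI encodes an AP2 factor of lateral root primordia. LBD29, LBD33, GATA23, ACR4, ARF19 and IAA14 rose as well, by 2.17 ± 0.29, 1.58 ± 0.31, 1.24 ± 0.44, 1.57 ± 0.25, 0.87 ± 0.17 and 1.87 ± 0.20 on the log2 scale. The members that fell were SHY2, an Aux/IAA repressor, by 1.79 ± 0.32, the auxin receptor gene AFB2 by 1.36 ± 0.08, MYB93, a repressor of lateral root development, by 1.26 ± 0.31, and ARF7 by 0.38 ± 0.11. The ARF7 and ARF19 levels thus moved in opposite directions: ARF19 went from 48.3, 51.3 and 51.9 rpm to 101, 88.7 and 90.9 rpm and ARF7 from 86, 83.7 and 87.8 rpm to 63.9, 81.9 and 54.8 rpm.

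Of the 18 root stem cell and meristem genes tested, 12 rose and 2 fell, with a median log2 fold change of 1.96; without both libraries that stand apart, 13 higher and 1 lower. WOX5 marks the quiescent centre of the root, and WOX5 rose from 1.82, 1.74 and 2.41 rpm to 67.3, 102 and 66.7 rpm (log2 fold change 4.71 ± 0.33, adjusted p = 7.24e-11). WOX11 rose from 0, 0 and 0.328 rpm to 34.3, 28.2 and 42.5 rpm (log2 fold change 5.01 ± 0.33, adjusted p = 6.32e-11); WOX11 acts in the first step of root formation from cuttings. WOX11 had no read in 2 of the 3 cut libraries. Of the PLT genes, AP2 factors that set meristem identity, PLT7 rose from 0.993, 1.13 and 1.2 rpm to 56, 133 and 49.6 rpm (log2 fold change 5.11 ± 0.36, adjusted p = 1.92e-10). PLT1 rose from 0.91, 0.698 and 1.53 rpm to 48.1, 83.5 and 48.8 rpm, PLT3 rose from 15.1, 11.7 and 15.5 rpm to 286, 549 and 265 rpm and BBM rose from 2.15, 0.262 and 2.41 rpm to 56.8, 122 and 52.4 rpm. CIM replicate 2 was the highest of its group in each of these 4 genes, and the other CIM libraries still lay far above the cut ones. PLT2, PLT5, SHR, SMB, LHW and WOX7 also rose, with log2 fold changes of 3.38 ± 0.23, 1.92 ± 0.18, 0.90 ± 0.14, 2.43 ± 0.21, 1.01 ± 0.10 and 1.997 ± 0.18. SCR and JKD, partners of SHR in the endodermal and stem cell layer, and PIN3 and WOX12 did not pass the test: SCR was at 49.9, 48.4 and 50.3 rpm at 0 d and 85, 123 and 77.8 rpm at CIM 4 d. TMO5, a vascular bHLH factor, fell by 1.02 ± 0.22, and the zinc-finger gene MGP by 1.09 ± 0.24. LHW has the same values as an overlapping gene in all 24 libraries, so that the reads of the pair cannot be told apart.

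Of the 19 shoot meristem and organ boundary genes tested, 6 rose (31.6%) and 3 fell (15.8%), with a median log2 fold change of 0.00. The share that rose was near the 35.6% of all genes, and the share that fell was under their 26.6%. The 19 members include WUS, which had no read in either group and could not be called. The shares and the median therefore partly reflect absent reads. WUS, the organiser gene of the shoot stem cells, had no read in any of the 6 libraries, which allows a level of up to 0.0918 rpm at 0 d and 0.0987 rpm at CIM 4 d (3 reads over each group, counting error only). STM was at 1.82, 0.174 and 1.31 rpm at 0 d and 0, 1.52 and 0.125 rpm at CIM 4 d, and CLV3 was at 0.0827, 0 and 0 rpm at 0 d and 0, 0 and 0 rpm at CIM 4 d; neither passed the test. The boundary gene CUC2 went from no read at 0 d to 10.4, 29.6 and 7.77 rpm, with replicate 2 the highest. CLV1 fell from 37.2, 29.7 and 29.8 rpm to 5.38, 6.34 and 5.89 rpm (log2 fold change -2.27 ± 0.29, adjusted p = 6.39e-07), and KNAT1 fell from 152, 177 and 166 rpm to 99.8, 96.3 and 95.7 rpm; CLV1 is a stem cell receptor and KNAT1 a KNOX homeobox factor of stems. PHB, LSH3, ESR1, RAX1 and KNAT6 rose by 1.49 ± 0.16, 1.06 ± 0.17, 1.27 ± 0.28, 0.73 ± 0.18 and 0.98 ± 0.11.

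Of the 12 wound-induced reprogramming factors tested, 8 rose and 3 fell, with a median log2 fold change of 1.48. WIND1, an AP2/ERF factor that links wounding to dedifferentiation, was lower after 4 days: WIND1 fell from 388, 443 and 419.9 rpm to 298, 184 and 387 rpm (log2 fold change -0.59 ± 0.22, adjusted p = 0.0236); the call was lost without 0 d replicate 2, 0 d replicate 3 or CIM replicate 2. Its relatives split, since WIND2 fell from 134, 170.4 and 219.7 rpm to 80.6, 51.1 and 97.3 rpm and WIND3 rose from 25.7, 21.5 and 23.5 rpm to 329, 293 and 409 rpm. ERF115, a factor of stem cell replenishment, rose by 1.88 ± 0.28, ERF114 by 2.22 ± 0.29 and the graft-union factor ANAC071 by 2.62 ± 0.39, while PAT1, a GRAS partner of ERF115, fell by 1.67 ± 0.09.

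Of the 25 auxin response and homeostasis genes tested, 15 rose and 6 fell, with a median log2 fold change of 1.505. GH3 enzymes conjugate auxin to amino acids, and 7 of 10 tested GH3 genes rose and 0 fell, a family count added after the values had been seen. GH3.3 rose from 87.6, 85.8 and 67.7 rpm to 419, 1233 and 404 rpm (log2 fold change 2.88 ± 0.44, adjusted p = 9.6e-06), with replicate 2 the highest. GH3.1 rose from 4.72, 3.84 and 3.28 rpm to 109.9, 255 and 97.6 rpm and GH3.2 rose from 11.8, 8.81 and 7.66 rpm to 162, 434 and 152 rpm. Among the Aux/IAA repressors, 11 of 22 rose and 4 fell, against 35.6% and 26.6% of all genes. IAA30 rose from 1.57, 2.01 and 1.2 rpm to 68.1, 111 and 86.8 rpm (log2 fold change 5.09 ± 0.32, adjusted p = 2.39e-11); IAA19 rose from 29.6, 21.7 and 16.9 rpm to 200.4, 264 and 231 rpm. IAA7 fell from 274, 284 and 219 rpm to 78.5, 70.1 and 81.8 rpm, and IAA6 fell from 7.78, 4.1 and 3.83 rpm to 0.283, 0.169 and 0 rpm, so that the family did not move as one. The auxin synthesis gene YUC9 fell by 2.15 ± 0.21 and the influx carrier gene AUX1 by 0.74 ± 0.11, whereas the efflux carrier gene PIN7 rose by 1.31 ± 0.12.

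Of the 25 cytokinin response and turnover genes tested, 10 rose and 8 fell, with a median log2 fold change of 0.37, shares and a median near those of all genes (35.6%, 26.6% and 0.35). Among the rises were cytokinin oxidases, the enzymes that break cytokinin down: CKX3 rose from 0.496, 0.262 and 0.109 rpm to 191, 268 and 216 rpm (log2 fold change 7.45 ± 0.20, adjusted p = 9.68e-17). CKX1 rose from 1.24, 1.48 and 2.3 rpm to 43, 20.6 and 50.8 rpm, and CKX6 rose from 10.2, 11.2 and 9.3 rpm to 81.6, 81.5 and 95.1 rpm. For each of these 3 genes every CIM library lay above every cut library. IPT3, a cytokinin synthesis gene, nearly lost its reads: IPT3 fell from 29.1, 45.8 and 30.2 rpm to 0.0945, 0 and 0.125 rpm (log2 fold change -5.04 ± 0.35, adjusted p = 5.7e-11). The receptor genes AHK2 and AHK3 fell by 1.04 ± 0.13 and 1.39 ± 0.09, and the response activator ARR1 by 0.93 ± 0.08. The type-A regulators split: ARR5, ARR6 and ARR8 fell, by 0.46 ± 0.12, 0.70 ± 0.18 and 0.56 ± 0.11, and ARR3, ARR4, ARR7, ARR9 and ARR15 rose, by 2.62 ± 0.32, 1.51 ± 0.09, 1.04 ± 0.15, 1.05 ± 0.12 and 2.05 ± 0.45.

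**Figure D3:**
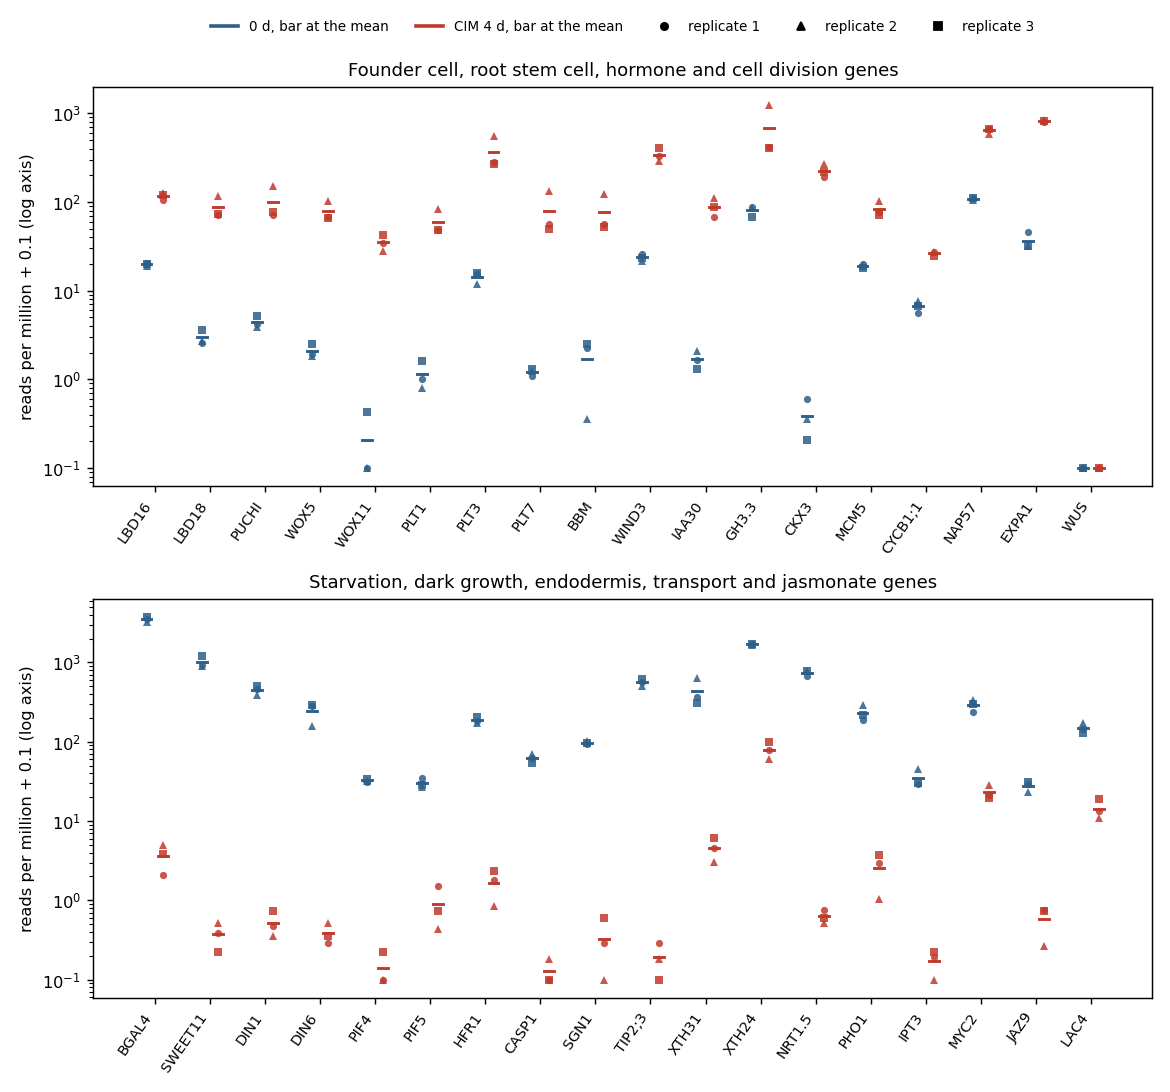
Rpm plus 0.1 (log axis) of 36 genes in each of the 6 wild type libraries, with 0 d in blue, CIM 4 d in red, symbols for the replicates and bars at group means. In the upper panel the CIM libraries lie above the cut libraries except for WUS, which had no read, and in the lower panel they lie below them.

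Most listed genes of cell division rose, against 35.6% of all genes. Of the 18 G1 and S phase cell cycle genes tested, 12 rose and 2 fell, with a median log2 fold change of 1.01. Of the 20 DNA replication genes tested, 18 rose and 0 fell, with a median log2 fold change of 1.696. Of the 27 G2 and mitosis genes tested, 20 rose and 1 fell, with a median log2 fold change of 0.87, or 18 higher and 0 lower without both libraries that stand apart. The D-type cyclin CYCD3;1 couples hormones to the G1/S transition, and CYCD3;1 rose from 80.3, 75.5 and 79 rpm to 157, 162 and 165 rpm (log2 fold change 1.04 ± 0.10, adjusted p = 6.22e-09). The transcription factor gene E2FA, which switches on S-phase genes, rose as well: E2FA rose from 6.79, 6.89 and 7.11 rpm to 26.4, 25.7 and 23.9 rpm. CYCD1;1 and CDKA;1, the general cell cycle kinase, went the other way, falling by 1.54 ± 0.18 and 0.34 ± 0.08. All 6 genes of the MCM helicase, the motor that opens replication origins, rose, for example MCM2 from 24, 22.7 and 19.7 rpm to 76.4, 125 and 68.4 rpm (log2 fold change 1.93 ± 0.19, adjusted p = 1.34e-08). MCM5 rose from 19.9, 19.1 and 17.9 rpm to 77.7, 102 and 71.9 rpm, and the ribonucleotide reductase gene RNR2A rose from 6.7, 5.84 and 6.57 rpm to 34.4, 48.2 and 30.1 rpm. In mitosis, CYCB1;1 rose from 5.54, 7.59 and 6.68 rpm to 27.6, 27.5 and 24.8 rpm (log2 fold change 1.87 ± 0.16, adjusted p = 1.24e-09); this B-type cyclin is the usual reporter of G2/M. CYCB2;1 rose from 3.39, 3.4 and 3.28 rpm to 15.5, 17.7 and 14.4 rpm and the Aurora kinase gene AUR3 rose from 2.81, 2.88 and 3.61 rpm to 12.9, 15 and 14.3 rpm. CYCB1;4 was called lower (log2 fold change -0.28 ± 0.11, adjusted p = 0.0236), a call lost without 0 d replicate 1 or 2 or CIM replicate 2 or 3.

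The promoters of these genes are shown because most replication and mitosis genes rose and their known regulators have short recognition motifs. Windows of 250 bases before to 50 bases after the annotated gene start were read from the TAIR10.1 genome (RefSeq) for 20134 tested genes and searched on both strands. The E2F motif (TTCCCGC or TTGGCGC) was in 13 of 20 replication promoters (65%) against 2.51% of all, and the core of the mitosis-specific activator element (AACGGT, the MSA core) in 13 of 27 mitosis promoters (48.1%) against 10.5%. The 250 bases before the start of MCM2 (chr1:16969964-16970213 on the plus strand) and MCM5 (chr2:3527501-3527750 on the minus strand) with E2F motifs, and of CYCB1;1 (chr4:17624309-17624558 on the minus strand) and CYCB2;1 (chr2:7663805-7664054 on the plus strand) with the MSA core, are printed 5′ to 3′ towards the gene with the motifs in capitals.
MCM2: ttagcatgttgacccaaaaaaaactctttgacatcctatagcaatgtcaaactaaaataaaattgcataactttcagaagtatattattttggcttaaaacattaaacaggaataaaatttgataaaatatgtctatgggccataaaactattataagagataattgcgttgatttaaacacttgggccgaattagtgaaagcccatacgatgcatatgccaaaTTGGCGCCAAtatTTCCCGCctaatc
MCM5: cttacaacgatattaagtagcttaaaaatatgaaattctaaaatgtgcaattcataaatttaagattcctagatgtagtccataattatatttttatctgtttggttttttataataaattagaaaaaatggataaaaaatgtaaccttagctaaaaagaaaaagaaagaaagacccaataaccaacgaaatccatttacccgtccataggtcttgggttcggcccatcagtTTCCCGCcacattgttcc
CYCB1;1: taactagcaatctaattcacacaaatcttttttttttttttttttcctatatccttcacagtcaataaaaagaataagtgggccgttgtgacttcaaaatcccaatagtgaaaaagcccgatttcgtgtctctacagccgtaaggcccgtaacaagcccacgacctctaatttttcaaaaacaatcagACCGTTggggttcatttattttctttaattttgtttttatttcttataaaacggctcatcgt
CYCB2;1: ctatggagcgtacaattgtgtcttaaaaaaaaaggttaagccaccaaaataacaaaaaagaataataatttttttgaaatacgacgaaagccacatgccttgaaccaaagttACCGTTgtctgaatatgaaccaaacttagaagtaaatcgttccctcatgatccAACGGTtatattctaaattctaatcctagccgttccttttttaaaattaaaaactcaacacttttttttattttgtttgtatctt
In MCM2 the motif occurred 3 times, 26, 23 and 13 bases before the start, the first pair overlapping on opposite strands, and in MCM5 once, 18 bases before it. The MSA core began 62 bases before the start of CYCB1;1 and 138 and 85 bases before that of CYCB2;1. A match is a description and does not show that a factor was bound.

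Of the 15 cell cycle inhibitor and endocycle genes tested, 5 rose and 5 fell, with a median log2 fold change of 0.32, shares near the 35.6% and 26.6% of all genes. KRP genes encode inhibitors of cyclin-dependent kinases: KRP1 fell from 13.6, 14.8 and 13.6 rpm to 2.08, 1.27 and 2.13 rpm (log2 fold change -2.42 ± 0.17, adjusted p = 6.31e-11). KRP2 fell from 16.5, 18.8 and 12.5 rpm to 6.14, 2.37 and 6.02 rpm, but KRP3 rose from 2.23, 2.01 and 1.97 rpm to 14.4, 12.2 and 13 rpm. SIAMESE, named SIM by its symbol and linked to endoreduplication, fell from 101, 96.7 and 106 rpm to 22.4, 15.7 and 22.4 rpm (log2 fold change -2.28 ± 0.17, adjusted p = 1.53e-10). Of the 41 histone genes tested, 32 rose and 2 fell, with a median log2 fold change of 1.2. The histone H2A gene HTA8 rose from 9.1, 7.33 and 6.9 rpm to 83.5, 80.8 and 81.7 rpm (log2 fold change 3.25 ± 0.19, adjusted p = 3.28e-12), while the drought-linked linker histone gene HIS1-3 fell from 230.0, 247 and 279.9 rpm to 16.2, 6.76 and 15.3 rpm. Of the 29 chromatin and DNA methylation genes tested, 19 rose and 1 fell, with a median log2 fold change of 0.92; without both libraries that stand apart, 17 higher and 2 lower. MET1, the maintenance DNA methyltransferase, rose by 1.11 ± 0.17, its partner VIM1 by 2.24 ± 0.22, the remodeller DDM1 by 2.27 ± 0.16 and the replication-coupled H3 methyltransferases ATXR5 and ATXR6 by 2.27 ± 0.13 and 2.15 ± 0.16.

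Ribosome genes rose in large numbers. Of the 322 ribosomal protein genes tested, 271 rose and 11 fell, with a median log2 fold change of 1.88, and of the 12 ribosome biogenesis genes 11 rose and 0 fell (median 1.88), or 11 higher and 1 lower without both libraries that stand apart. The protein list was taken from product names and does not fully separate cytosolic from organellar ribosomes. NAP57 is the pseudouridine synthase of box H/ACA particles, and NAP57 rose from 110.0, 105 and 112 rpm to 669, 593 and 673 rpm (log2 fold change 2.55 ± 0.09, adjusted p = 5.42e-15). NOP56 and FIB2 belong to the box C/D particles that methylate rRNA: NOP56 rose from 129.7, 133 and 126 rpm to 692, 578 and 740.0 rpm and FIB2 rose from 39, 35.6 and 40.6 rpm to 315, 319.6 and 288 rpm. NUC1 rose from 284, 291 and 298 rpm to 803, 1014 and 699 rpm; NUC1 encodes nucleolin. TOR, the growth kinase, did not pass the test, at 116, 127 and 120.4 rpm and then 95, 157 and 86.2 rpm. The telo box (AACCCTA) was in 130 of 322 ribosomal protein promoters (40.4%) and 7 of 12 ribosome biogenesis promoters (58.3%) against 7.84% of all, and the site II motif (TGGGCC or TGGGCT) in 63.7% and 83.3% against 25.3%. In the 250 bases before the start, both motifs stand in capitals in NOP56 (chr1:20986953-20987202 on the minus strand). In NAP57 (chr3:21156076-21156325 on the minus strand) only site II does, as no telo box is in the printed stretch.
NOP56: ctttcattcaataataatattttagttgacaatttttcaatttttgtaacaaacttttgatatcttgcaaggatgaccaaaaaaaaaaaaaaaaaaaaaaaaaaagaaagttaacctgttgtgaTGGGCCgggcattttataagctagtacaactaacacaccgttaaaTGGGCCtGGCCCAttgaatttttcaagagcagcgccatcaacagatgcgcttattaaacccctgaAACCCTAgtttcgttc
NAP57: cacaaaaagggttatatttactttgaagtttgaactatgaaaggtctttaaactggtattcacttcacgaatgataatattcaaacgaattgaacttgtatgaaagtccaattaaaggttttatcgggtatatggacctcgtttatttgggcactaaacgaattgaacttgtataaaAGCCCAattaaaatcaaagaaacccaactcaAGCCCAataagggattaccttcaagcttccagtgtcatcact
The auxin response motif (TGTCTC or TGTCGG) was in 12 of 25 promoters of the auxin list (48%) against 18.5% of all, and is in capitals in the 250 bases before the start of GH3.3 (chr2:9866563-9866812 on the minus strand). Lists that mostly fell also held it often, in 42.3% of cell elongation, 34.8% of xylem and 31.2% of phloem promoters.
GH3.3: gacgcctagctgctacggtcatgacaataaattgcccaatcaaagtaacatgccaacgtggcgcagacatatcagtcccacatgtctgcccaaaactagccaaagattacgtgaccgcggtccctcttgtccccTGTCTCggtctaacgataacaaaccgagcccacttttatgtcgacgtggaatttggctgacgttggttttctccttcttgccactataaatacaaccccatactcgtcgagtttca
Among all genes that rose at least 4-fold, the shares were near those of all promoters for the E2F motif (1.98%), the MSA core (9.3%) and the auxin motif (18.5%), and 16.4% held site II.

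**Figure D4:**
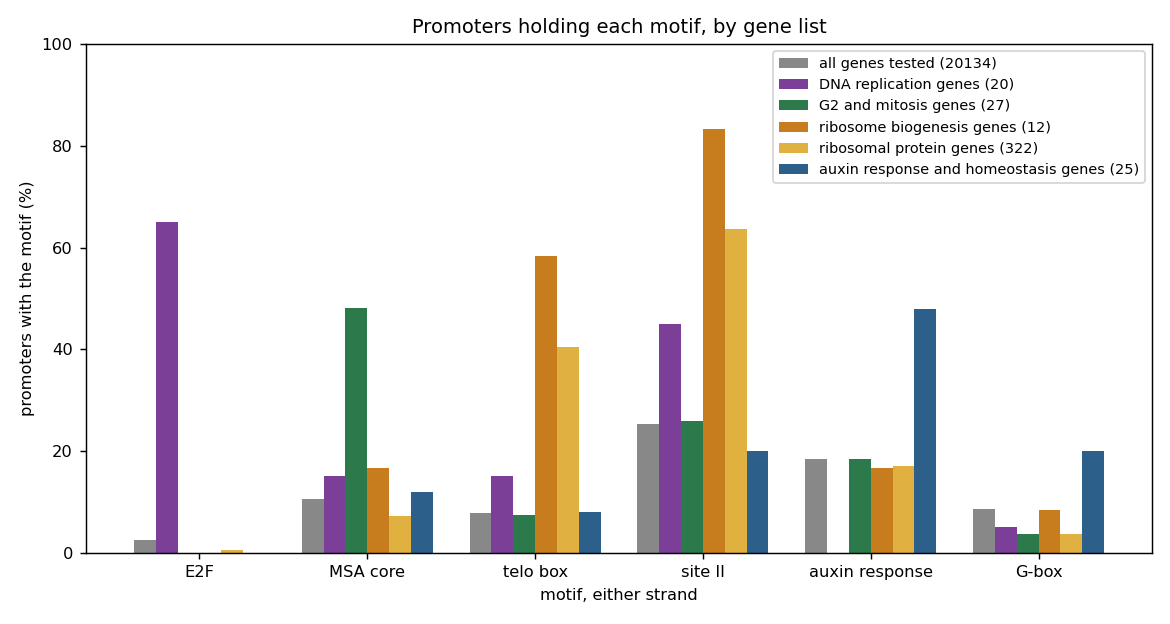
Percentage of promoters (250 bases before to 50 after the gene start) that hold each motif on either strand, for all genes tested and 5 gene lists, with the number of promoters in brackets. The E2F bar is highest for DNA replication genes, the MSA core bar for mitosis genes, and the telo box and site II bars for both ribosome lists.

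Most listed genes of sugar and nitrogen shortage fell. Of the 27 sugar starvation and nitrogen remobilisation genes tested, 2 rose and 17 fell, with a median log2 fold change of -1.51. DIN6 encodes an asparagine synthetase induced by darkness and sugar depletion, and DIN6 fell from 283, 156 and 293 rpm to 0.189, 0.422 and 0.251 rpm (log2 fold change -7.52 ± 0.30, adjusted p = 1.47e-14). DIN1 fell from 467, 393 and 505 rpm to 0.378, 0.253 and 0.627 rpm (log2 fold change -8.33 ± 0.21, adjusted p = 5.83e-17) and the beta-galactosidase gene BGAL4 fell from 3511, 3212 and 3744 rpm to 1.98, 4.9 and 3.76 rpm. The sucrose efflux carrier gene SWEET11 fell from 939, 901 and 1203 rpm to 0.283, 0.422 and 0.125 rpm, and SWEET12 fell from 380.1, 380.0 and 428 rpm to 0.85, 0.0845 and 0.251 rpm. All 5 genes were under 5 rpm in every CIM library. TPS8, TPS9 and TPS10, trehalose phosphate synthase-like genes, fell by 1.41 ± 0.28, 1.88 ± 0.14 and 2.62 ± 0.14, and the proline dehydrogenase gene PRODH by 1.28 ± 0.14. KIN10, a catalytic subunit of the SnRK1 energy sensor, was at 52.5, 55.8 and 50.6 rpm and then 52, 47.2 and 53.8 rpm and did not pass the test. The sucrose synthase gene SUS1 went up instead: SUS1 rose from 40.9, 33.8 and 41.5 rpm to 249.9, 479.5 and 215 rpm (log2 fold change 2.91 ± 0.25, adjusted p = 3.16e-09).

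Of the 22 light signalling and dark growth genes tested, 4 rose and 12 fell, with a median log2 fold change of -0.44. PIF4 and PIF5 encode bHLH factors that promote hypocotyl elongation: PIF4 fell from 31.4, 31.8 and 33.9 rpm to 0, 0 and 0.125 rpm (log2 fold change -5.003 ± 0.21, adjusted p = 2.77e-14) and PIF5 fell from 34.5, 27 and 28.8 rpm to 1.42, 0.338 and 0.627 rpm. PIF1 and PIF3 fell by 2.97 ± 0.27 and 1.897 ± 0.17, so that all 4 tested PIF genes were lower. HFR1 fell from 184, 175 and 204 rpm to 1.7, 0.76 and 2.26 rpm (log2 fold change -6.24 ± 0.25, adjusted p = 2.21e-14); HFR1 is an atypical bHLH that restrains PIFs. PHYA, the far-red photoreceptor gene, fell by 1.18 ± 0.18, while HY5 was at 13.8, 16 and 28 rpm at 0 d and 35.3, 26.9 and 31.2 rpm at CIM 4 d and did not pass the test. The light-induced HYH rose from 0.248, 0.523 and 0.547 rpm to 14.5, 11.3 and 10.2 rpm, and HLS1, of the apical hook, from 5.87, 3.14 and 4.16 rpm to 46.4, 41.1 and 42.6 rpm. Of the 16 circadian clock genes tested, 1 rose and 13 fell, with a median log2 fold change of -0.80. CCA1 fell from 70.7, 84.5 and 85.1 rpm to 32.7, 27.6 and 29.2 rpm (log2 fold change -1.39 ± 0.21, adjusted p = 4.85e-06) and PRR7 fell from 109, 135 and 138 rpm to 27.4, 32.2 and 40.5 rpm, and ELF4 alone was higher, by 1.37 ± 0.27. Sampling hours are not in the labels used here, so that time of day was not tested.

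Photosynthesis genes gave no direction that held without the libraries that stand apart. Of the 30 photosynthesis genes tested, 0 rose and 6 fell, with a median log2 fold change of -0.42, but without 0 d replicate 1 and CIM replicate 2 the counts were 12 higher and 1 lower. As 0 d replicate 1 was singled out by these same genes, the second count follows in part from that choice and is no separate evidence of a rise. The list summed to 2334, 359 and 419 rpm at 0 d and 365, 177 and 486 rpm at CIM 4 d, so that the groups overlapped. LHCB1.1, a light-harvesting protein gene, was at 81.4, 0.523 and 0.438 rpm at 0 d and 3.21, 0.169 and 5.14 rpm at CIM 4 d. RBCS1A, of the Rubisco small subunit, was at 294, 0.611 and 0.766 rpm and then 19.8, 1.69 and 31.7 rpm. The groups did not overlap for the photosystem I antenna gene LHCA4: LHCA4 fell from 142, 118 and 144 rpm to 27.8, 21.5 and 31.2 rpm (log2 fold change -2.297 ± 0.26, adjusted p = 1.41e-07). Of 20 chlorophyll synthesis and greening genes, 3 rose and 7 fell, or 7 higher and 7 lower without both libraries. The greening regulators fell: GLK2 fell from 29.2, 27.7 and 34.7 rpm to 1.23, 1.35 and 0.376 rpm (log2 fold change -4.02 ± 0.21, adjusted p = 1.08e-12) and GNC from 6.87, 2.88 and 4.6 rpm to no read in any CIM library. Of the 13 flavonoid and anthocyanin genes tested, 7 rose and 2 fell, with a median log2 fold change of 1.15, or 7 higher and 1 lower without both libraries; CHS, the entry enzyme, was at 17.1, 0 and 0 rpm and then 9.73, 6.59 and 8.77 rpm and did not pass the test on both scales, and the flavonol regulator MYB11 rose from 0.496, 0 and 0.219 rpm to 8.31, 10.2 and 7.39 rpm.

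**Figure D5:**
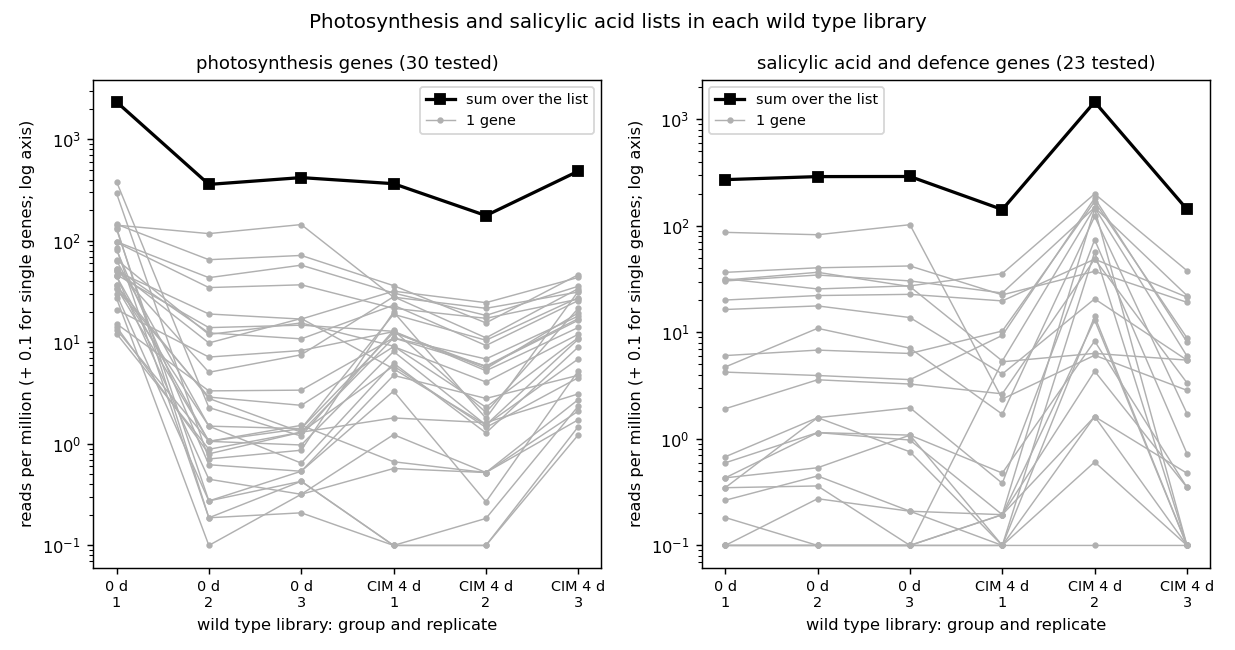
Rpm (log axis, 0.1 added for single genes) of the 30 tested photosynthesis genes (left) and the 23 tested salicylic acid and defence genes (right) in each wild type library, with the sum over the list in black. The photosynthesis sum is highest in 0 d replicate 1 at 2334 rpm and the salicylic acid sum in CIM 4 d replicate 2 at 1457 rpm.

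Wall genes of elongation fell as a group with exceptions. Of the 26 cell elongation and primary wall genes tested, 6 rose and 19 fell, with a median log2 fold change of -1.35. XTH enzymes cut and rejoin xyloglucan, and 14 of 23 tested XTH genes fell and 3 rose, a family count added after the values had been seen. XTH31 fell from 366, 632 and 305 rpm to 4.53, 2.96 and 6.02 rpm (log2 fold change -6.27 ± 0.42, adjusted p = 1.02e-10) and XTH24 fell from 1718, 1675 and 1729 rpm to 78.5, 59.6 and 98.4 rpm. Expansins loosen walls, and of 17 tested EXPA genes 8 rose and 5 fell, or 8 and 2 without both libraries that stand apart. EXPA7 and EXPA18, counted among the 17, had no read in either group. EXPA1 rose from 45.8, 32.1 and 31.5 rpm to 790.4, 845 and 816 rpm (log2 fold change 4.47 ± 0.16, adjusted p = 3.28e-15) and EXPA10 rose from 2.65, 1.57 and 1.75 rpm to 99.4, 163 and 105 rpm, whereas EXPA11 fell by 3.41 ± 0.35. The primary wall cellulose synthase genes CESA1, CESA3 and CESA6 fell by 1.37 ± 0.12, 1.61 ± 0.13 and 2.08 ± 0.12. Aquaporins, the water channels that expanding cells use, were among the genes that fell, in families likewise added after the values had been seen: 5 of 6 tonoplast and 9 of 13 plasma membrane genes fell, and 0 and 2 rose. TIP2;3 fell from 569, 511 and 617 rpm to 0.189, 0.0845 and 0 rpm (log2 fold change -9.02 ± 0.13, adjusted p = 1.3e-20) and TIP2;2 fell from 614, 583 and 612 rpm to 0.756, 1.69 and 0.501 rpm. The plasma membrane genes PIP1;4 and PIP2;5 rose, by 1.87 ± 0.18 and 2.26 ± 0.46.

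Most listed genes of the endodermis fell. Of the 13 endodermis and Casparian strip genes tested, 0 rose and 11 fell, with a median log2 fold change of -4.15. CASP1 encodes a scaffold of the Casparian strip: CASP1 fell from 61.5, 69.6 and 53.4 rpm to 0, 0.0845 and 0 rpm (log2 fold change -5.92 ± 0.48, adjusted p = 9.22e-10). All 5 CASP genes fell, as did MYB36, their activator, by 3.4 ± 0.41, the strip peroxidase gene PER64 by 5.28 ± 0.37 and the receptor kinase gene SGN3 by 4.35 ± 0.34. SGN1 fell from 92.8, 101 and 97.5 rpm to 0.189, 0 and 0.501 rpm (log2 fold change -6.34 ± 0.25, adjusted p = 1.46e-14); SGN1 is the kinase that acts with SGN3. SCR, which is also an endodermal gene, did not pass the test, nor did CIF1. Of the 17 suberin genes tested, 4 rose and 8 fell, with a median log2 fold change of -0.53, or 2 higher and 7 lower without both libraries that stand apart; MYB92 fell from 32.9, 36.8 and 37.3 rpm to 1.04, 1.44 and 0.752 rpm, and MYB92 is a suberin regulator.

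Of the 23 secondary wall and xylem genes tested, 3 rose and 14 fell, with a median log2 fold change of -0.68. The lignin laccase gene LAC4 fell from 143, 174 and 129 rpm to 13.1, 10.8 and 18.8 rpm (log2 fold change -3.32 ± 0.29, adjusted p = 3.49e-09), and the secondary wall cellulose synthase gene CESA8 fell from 56.4, 83.5 and 63.4 rpm to 14.5, 10.8 and 16.5 rpm. The vessel master regulator VND7 did not pass the test, at 6.12, 6.28 and 4.82 rpm and then 4.91, 1.86 and 4.76 rpm. ACL5, a thermospermine synthase gene of xylem precursors, rose by 1.13 ± 0.13. Of the 16 phloem genes tested, 1 rose and 12 fell, with a median log2 fold change of -1.298. SEOA fell from 304, 329 and 287 rpm to 51, 17.9 and 51.9 rpm (log2 fold change -3.04 ± 0.55, adjusted p = 5.55e-05); SEOA encodes a sieve element filament protein. APL fell from 26.8, 30.2 and 25.3 rpm to 10.01, 3.13 and 11.3 rpm; APL sets phloem identity. CIM replicate 2 was the lowest library for both, and the groups did not overlap. Of the 22 epidermis and cuticle genes tested, 10 rose (45.5%) and 7 fell (31.8%), against 35.6% and 26.6% of all genes, with a median log2 fold change of 0.55. PDF1 rose from 68.8, 3.93 and 13 rpm to 299, 409 and 329.7 rpm (log2 fold change 4.35 ± 0.92, adjusted p = 0.000319), with 0 d replicate 1 the highest of its group, and the cutin gene DCR rose from 6.87, 4.88 and 6.57 rpm to 46.9, 120.2 and 50.9 rpm. The wax elongase gene CER6 fell from 1152, 1314 and 1067 rpm to 103, 256 and 109.8 rpm, so that the cuticle list moved both ways. Of 12 root hair genes tested, 3 rose and 0 fell, or 1 higher and 0 lower without both libraries; RHD6 was at 0.165, 0.0872 and 0.766 rpm at 0 d and 1.04, 4.22 and 0.877 rpm at CIM 4 d, and its call was lost without 0 d replicate 1 or 2 or CIM replicate 2. Of 12 stomatal lineage genes listed, 4 passed the filter; the entry factor SPCH was below it, at 0.331, 0 and 0 rpm and then 0, 0 and 0.251 rpm.

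Jasmonate genes were lower after 4 days than within minutes of cutting. Of the 21 jasmonate synthesis and response genes tested, 0 rose and 15 fell, with a median log2 fold change of -1.12. MYC2 fell from 237, 338 and 298 rpm to 21, 28.6 and 19.7 rpm (log2 fold change -3.603 ± 0.16, adjusted p = 1.04e-13); MYC2 is the chief activator of jasmonate responses. JAZ9 fell from 29, 23.2 and 30.9 rpm to 0.661, 0.169 and 0.627 rpm (log2 fold change -4.28 ± 0.35, adjusted p = 7.2e-10), one of 8 of 11 tested JAZ repressor genes that fell. VSP2 fell from 42.7, 40.6 and 35.9 rpm to 2.08, 1.18 and 2.13 rpm; VSP2 encodes a vegetative storage protein. Of the 20 early wound and touch response genes tested, 3 rose and 9 fell, with a median log2 fold change of -0.67, or 4 higher and 13 lower without both libraries that stand apart. ZAT10, a zinc-finger repressor of early wound responses, was at 13.6, 60.3 and 45.5 rpm and then 5.95, 17.7 and 4.76 rpm, with 0 d replicate 1 below CIM replicate 2; the list summed to 254, 920.5 and 266 rpm at CIM 4 d, with replicate 2 again the highest. Of the 23 salicylic acid and defence genes tested, 2 rose and 2 fell, with a median log2 fold change of 0.52, or 1 higher and 4 lower without both libraries. CIM replicate 2 was singled out partly by these same genes, so the second count depends on that choice. ICS1, the salicylic acid synthesis gene, was at 4.14, 3.84 and 3.5 rpm and then 9.26, 182 and 8.02 rpm and did not pass the test on both scales, so that its mean at CIM 4 d rests on replicate 2. PR1 had no read at 0 d and 5.2, 6.25 and 5.39 rpm at CIM 4 d, at least 61.6-fold higher against 3 reads over the group, with all 3 CIM libraries alike. Of the 14 heat shock genes tested, 1 rose and 2 fell, with a median log2 fold change of 1.21, or 0 higher and 2 lower without both libraries, and its sums overlapped, at 365, 270.3 and 342 rpm and then 321, 331 and 608 rpm.

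Of the 29 phosphate, nitrate and sulfate acquisition genes tested, 14 rose and 9 fell, with a median log2 fold change of 0.88. PHT1;1 takes up phosphate at the root surface, and PHT1;1 rose from 6.12, 2.62 and 6.13 rpm to 88.1, 83.7 and 120.4 rpm (log2 fold change 4.095 ± 0.51, adjusted p = 5.67e-07). APR3 rose from 58.5, 50.9 and 66.9 rpm to 307, 459 and 272 rpm; APR3 reduces activated sulfate. NRT1.5 fell from 674, 769.7 and 778 rpm to 0.661, 0.422 and 0.501 rpm (log2 fold change -8.92 ± 0.18, adjusted p = 4.52e-18); NRT1.5 loads nitrate into the xylem. PHO1 fell from 190.1, 293 and 215 rpm to 2.83, 0.929 and 3.63 rpm (log2 fold change -6.15 ± 0.29, adjusted p = 4.23e-13); PHO1 loads phosphate into the xylem. NRT2.1, of high-affinity nitrate uptake, rose by 0.85 ± 0.36 and the dual-affinity NRT1.1 fell by 1.102 ± 0.39.

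Of the 35 gibberellin, brassinosteroid and ethylene genes tested, 12 rose (34.3%) and 15 fell (42.9%), with a median log2 fold change of -0.28. The share that rose was near the 35.6% of all genes, and the share that fell was above their 26.6%. The ethylene synthesis gene ACS8 rose from 0.579, 0.436 and 0.219 rpm to 92, 88.5 and 90.2 rpm (log2 fold change 6.02 ± 0.41, adjusted p = 8.91e-11). The DELLA genes GAI and RGA fell by 0.60 ± 0.25 and 2.04 ± 0.17, and the brassinosteroid synthesis gene CPD by 2.25 ± 0.12. Of the 12 seed reserve and glyoxylate cycle genes tested, 1 rose and 5 fell, with a median log2 fold change of -0.02; the isocitrate lyase gene ICL fell from 183, 19.98 and 55.8 rpm to 2.46, 16.2 and 1.5 rpm, with groups that did not overlap but spread widely. Of the 57 peroxidase genes tested, 16 rose and 20 fell, with a median log2 fold change of 0.18, shares read against 35.6% and 26.6% of all genes. The list was taken from product names and holds DOX1, an alpha-dioxygenase gene: DOX1 rose from 9.1, 1.22 and 9.08 rpm to 506, 553 and 570.1 rpm and the peroxidase gene RCI3 fell from 99.8, 110.1 and 65.7 rpm to 0, 0.0845 and 0.376 rpm.

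By product name, 762 tested genes were transcription factors, a list that misses some, such as PLT7 and PIF4, and 254 rose (33.3%) and 247 fell (32.4%), against 35.6% and 26.6% of all genes. The largest rises in that list were, beside WOX11, BBM and PLT1, those of HB17 and HB53, both HD-Zip genes, PI, the bHLH gene AT1G10585 and the PLATZ gene AT3G60670. HB53 rose from 0.662, 0 and 0.766 rpm to 66.2, 97.3 and 65.7 rpm (log2 fold change 5.73 ± 0.32, adjusted p = 1.98e-12), and HB17 rose from 0.331, 0.611 and 0.109 rpm to 64.2, 99.8 and 66.2 rpm. PI (PISTILLATA) is known as a floral organ identity gene, and PI rose from 0.165, 0.174 and 0.438 rpm to 30.1, 91.6 and 32.2 rpm (log2 fold change 5.19 ± 0.66, adjusted p = 7.97e-07). The largest falls in that list were those of HFR1, MYB48, AT5G42690, MYB59, HB52, MYB55, MYB305 and MYB34. MYB48 fell from 34.6, 46.2 and 41.7 rpm to 0.189, 0 and 0 rpm (log2 fold change -5.29 ± 0.20, adjusted p = 1.07e-14), and MYB59 fell from 271, 317 and 321 rpm to 10.9, 3.72 and 10.8 rpm. MYB34, a regulator of indole glucosinolates, fell from 101, 131 and 93.9 rpm to 10.8, 0.591 and 9.4 rpm.

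The largest rises and falls were ranked among genes with groups apart and called in every leave-one-out fit. The rank is by log2 fold change of rpm + 1, so the added 1 rpm affects the order, which is not that of the ratios of means. The largest rises were those of PR-1-LIKE, AT5G14650, CDEF1, OSM34, CKX3, MLP-300B, CYP87A2, AT3G19200, PGAZAT and DOX1. PR-1-LIKE rose from 0.331, 0.0872 and 0.657 rpm to 567, 454 and 602 rpm (log2 fold change 8.65 ± 0.21, adjusted p = 3.2e-17), and CDEF1 rose from 5.46, 2.53 and 17.8 rpm to 1633, 1048 and 1915 rpm (log2 fold change 7.62 ± 0.60, adjusted p = 9.61e-10), a cutinase gene. PGAZAT encodes a polygalacturonase of organ separation: PGAZAT rose from 0.827, 0.698 and 1.53 rpm to 183, 199 and 207 rpm. These genes had less than 20 rpm in every cut library and over 90 rpm in every CIM library. The largest falls in the same ranking were those of BXL1, AT4G11320, ATPMEPCRD, BGAL4, SWEET11, AT4G37220, TIP2;3, NRT1.5, DIN1 and TIP2;2. BXL1 fell from 5486, 5056 and 6612 rpm to 3.31, 1.44 and 6.39 rpm (log2 fold change -10.38 ± 0.49, adjusted p = 6.61e-13); BXL1 encodes a wall beta-xylosidase. The pectin methylesterase gene ATPMEPCRD fell from 1673, 1829 and 1517 rpm to 0.85, 1.18 and 1.0 rpm. By gain in mean level the first were AT4G15160, AGP31, GRP9, AT5G60390, HSC70-1, AT2G05510, CDEF1 and AT5G20290: the lipid-transfer gene AT4G15160 rose from 54.4, 32.7 and 87.3 rpm to 3599.7, 2985 and 3561 rpm, and the elongation factor gene AT5G60390 rose from 1870.0, 1683 and 1617 rpm to 3947, 3622 and 3573 rpm. GRP9 rose from 98.5, 65 and 133 rpm to 3624, 509 and 3559 rpm (log2 fold change 4.29 ± 0.75, adjusted p = 4.14e-05), with CIM replicate 2 far below its group; AT2G05510, another glycine-rich gene, was also low there, at 2696, 888 and 2719 rpm.

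For 13 genes no read was found in any cut library while each CIM library reached 5 rpm, and for 36 genes the reverse held. The first set was led by AT5G60530, AT5G43570, AOX1B, AT1G76470, GGPS2 and CUC2. AOX1B, an alternative oxidase gene, reached 46.3, 32.5 and 44.1 rpm, at least 439.7-fold higher against a floor of 3 reads over the 3 cut libraries. The second set was led by AT2G10940, KCS19, AT3G53980, AT5G19890, NUDT8 and AT14A. KCS19, a fatty acid elongase gene, was at 112, 98.3 and 72.2 rpm at 0 d and at least 974-fold lower at CIM 4 d. The lipid-transfer gene AT2G10940 was at 220.4, 58.8 and 50.2 rpm at 0 d, with replicate 1 the highest. The values of AT14A were equal to those of a neighbouring copy in all 24 libraries, and their reads cannot be told apart.

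The same transition in siz1-2, from 6 other libraries, moved most of these genes the same way. SIZ1, the mutated gene, was at 93.6 ± 4.92 and 96.6 ± 24.5 rpm in wild type at 0 d and CIM 4 d and at 75.7 ± 5.11 and 55.2 ± 3.06 rpm in siz1-2 (mean ± SD over 3 libraries). There 7509 genes rose (36.9%) and 5560 fell (27.3%), and of the 12661 genes called in wild type 11403 (90.1%) were called in the same direction in siz1-2 and 15 in the opposite one. WOX5 changed by 5.88 in siz1-2 and 4.71 in wild type, LBD18 by 4.27 and 4.48, CASP1 by -6.75 and -5.92, and BXL1 by -9.92 and -10.38. The test of the difference between the changes called 622 genes on both scales (3.05%), 308 with the wild type change higher (1.51%) and 314 with it lower (1.54%). Among the lists, 5 of 16 clock, 3 of 14 heat shock and 3 of 22 light signalling genes were in the first set. The second set held 31 of 322 ribosomal protein, 6 of 41 histone and 2 of 12 ribosome biogenesis genes. Some list medians differed in sign between wild type and siz1-2, such as those of heat shock genes (1.21 and -1.05) and photosynthesis genes (-0.42 and 1.18). The ribosomal protein list rose in both genotypes, with 276 members higher in siz1-2 and a median of 2.17 there. In siz1-2 at CIM 4 d, replicate 3 stood apart from replicates 1 and 2, with a chi-square per gene of 38.7 and 29.1 where these gave 5.27 against each other. In siz1-2 at 0 d, replicate 3 gave 12 and 11.1 against replicates 1 and 2, which gave 7.51 against each other. The 314 genes with the lower wild type change became 165, 202, 187, 201, 201, 205 and 158 without wild type 0 d replicate 1, 0 d replicate 2, CIM replicate 3, siz1-2 0 d replicate 2, 0 d replicate 3, CIM replicate 1 or CIM replicate 2, and the 308 with the higher one 195 and 197 without wild type CIM replicate 3 or siz1-2 0 d replicate 2.

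Once the wild type callus was moved to SIM, the genes of the founder and stem cell programme took different courses, given here as levels beside those at CIM 4 d. BBM, at 56.8, 122 and 52.4 rpm at CIM 4 d, was at 0.429 ± 0.175 rpm at SIM 4 d and 0.072 ± 0.125 rpm at SIM 6 d (mean ± SD over 3 libraries). PLT1 was at 0.508 ± 0.301 rpm at SIM 4 d and 0.245 ± 0.297 rpm at SIM 6 d, and HB53 at 2.72 ± 0.854 rpm at SIM 4 d and 1.27 ± 0.717 rpm at SIM 6 d. WOX11 was at 43.6 ± 5.43 rpm at SIM 4 d and 27 ± 10.2 rpm at SIM 6 d, and CUC2 at 26.2 ± 7.97 rpm at SIM 4 d and 28.2 ± 5.11 rpm at SIM 6 d. SWEET11 was at 0.0269 ± 0.0466 rpm at SIM 4 d and 0.438 ± 0.494 rpm at SIM 6 d, whereas CAT3 was at 1596 ± 79.6 rpm at SIM 4 d and 1864 ± 344 rpm at SIM 6 d, between its CIM 4 d and 0 d levels.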

How the data were processed

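RNA was extracted from hypocotyl explants with a column kit and DNase, and libraries were made with the KAPA Stranded mRNA-Seq kit, per the labels' protocols. Per the submitters' processing notes, bcl2fastq and Bowtie 1.2.1 were used with the TAIR10 genome. For the counting rule and its use of strand, the sources used here state nothing. The authors deposited 1 signal value per isoform and library, 33864 isoforms in all. Each value was a whole number of reads (100% within a tolerance of 0.001) divided by a library total and multiplied by 1000000, so the values are reads per 1000000 (rpm) and the totals could be recovered. Gene values summed to between 102.5% and 103.3% of the totals in the 6 wild type libraries at 0 d and CIM 4 d, so some reads were counted at more than 1 gene, and 145 tested genes had values equal to another gene in all 24 libraries.

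For each of 25960 genes 1 isoform was kept, that with the greatest mean value across all 24 libraries; 25593 gene IDs matched the TAIR10.1 annotation (RefSeq), which gave names and promoters. Genes with at least 1 rpm in 3 or more libraries (20361) were tested with limma 3.58.1 in R 4.3.3, with trended and robust variances on log2(value + 1), all 24 libraries entering as 8 group means with 16 residual degrees of freedom. The test was run on the deposited scale and after median-of-ratios rescaling, whose factors ran from 0.78 to 0.82 in wild type at 0 d and from 1.07 to 1.11 in wild type at CIM 4 d, and a call needed an adjusted p under 0.05 (Benjamini-Hochberg) in 1 direction on both. The difference between the wild type and siz1-2 changes was tested in the same fit. edgeR 4.0.16 and DESeq2 1.42.0 on the recovered reads, other pseudocounts, filters and scales, summed isoforms, a replicate block and left-out libraries were alternatives. The fit was also run on simulated counts in which wild type CIM 4 d equalled 0 d for all but a small set of genes. That setting held neither the scale shift between these groups nor libraries that stand apart, so it does not speak to them. Named genes were the first of each list and up to 4 rises and 4 falls per list by size, 8 for transcription factors, the 10 largest rises and falls with groups apart and called in every leave-one-out fit, the 8 largest gains and losses in mean level, and the 6 highest without reads in 1 group; others named beside them were chosen after their values were seen. The members and lists were chosen with earlier results of these data known. For SIM 6 d replicates 2 and 3 the titles and descriptions disagree on the days, and groups follow the titles. Reads are not molecules, so floors cover counting error only.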

Additional observations from a re-analysis of the deposited data

Results flagged for a closer look

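Among the 286 genes chosen by the naming rule, 19 had a change from 0 d to CIM 4 d that differed between wild type and siz1-2 on both scales, of 622 such genes in all. For 10 of them the difference, wild type minus siz1-2 on the log2 scale with limma, was called in each of 12 fits that left out 1 library. The adjusted p-values below are those of the deposited scale.

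DREB2A, a drought and heat response factor gene, went from 29.2 to 10.2 rpm in wild type and from 189 to 5.49 rpm in siz1-2 (means of 3 libraries), a difference in log2 change of 3.42 ± 0.41 (adjusted p = 4.97e-05). The clock gene PRR7 went from 128 to 33.4 rpm in wild type and from 275 to 30.8 rpm in siz1-2 (means of 3 libraries), a difference in log2 change of 1.21 ± 0.24 (adjusted p = 0.00862). HYH, the homologue of HY5, went from 0.44 to 12 rpm in wild type and from 2.89 to 11.9 rpm in siz1-2 (means of 3 libraries), a difference in log2 change of 1.42 ± 0.26 (adjusted p = 0.00365). For DREB2A and PRR7 the genotypes stood further apart at 0 d than at CIM 4 d. SIG5, a plastid sigma factor gene, went from 0.581 to 6.14 rpm in wild type and from 4.23 to 4.13 rpm in siz1-2 (means of 3 libraries), a difference in log2 change of 2.17 ± 0.33 (adjusted p = 0.000689). The apical hook gene HLS1 went from 4.39 to 43.4 rpm in wild type and from 1.01 to 56 rpm in siz1-2 (means of 3 libraries), a difference in log2 change of -1.76 ± 0.34 (adjusted p = 0.00615). The xylem nitrate loader gene NRT1.5 went from 741 to 0.528 rpm in wild type and from 331 to 1.1 rpm in siz1-2 (means of 3 libraries), a difference in log2 change of -1.62 ± 0.26 (adjusted p = 0.00113). The fibrillarin gene FIB2 went from 38.4 to 308 rpm in wild type and from 23.3 to 307 rpm in siz1-2 (means of 3 libraries), a difference in log2 change of -0.69 ± 0.13 (adjusted p = 0.0042). For HYH, SIG5, HLS1 and FIB2 the genotypes likewise differed more in mean, as a ratio, at 0 d than at CIM 4 d. The defence marker PR1 went from 0 to 5.61 rpm in wild type and from 0 to 1.61 rpm in siz1-2 (means of 3 libraries), a difference in log2 change of 1.34 ± 0.22 (adjusted p = 0.00134). AT2G41260, a late embryogenesis abundant protein gene, went from 5.05 to 0 rpm in wild type and from 108 to 2.57 rpm in siz1-2 (means of 3 libraries), a difference in log2 change of 2.59 ± 0.45 (adjusted p = 0.00239). The peroxidase gene AT5G19890 went from 83.8 to 0 rpm in wild type and from 32.9 to 0.765 rpm in siz1-2 (means of 3 libraries), a difference in log2 change of -2.22 ± 0.45 (adjusted p = 0.00871). PR1, AT2G41260 and AT5G19890 each had a group without reads, and HYH, SIG5 and NRT1.5 had a wild type mean under 1 rpm, so the fitted differences of all 6 depend on the added 1 rpm.

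Groups of 3 libraries are too small for a test of single outlying values.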

How the results depend on the processing

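The wild type counts, 7244 rises and 5417 falls, ran from 6818 to 7345 and from 5062 to 5520 when 1 library was left out, and were 7210 and 5375 with a replicate block, 7269 and 5437 with 0.1 added in place of 1, 7146 and 5349 with 5 added, 7452 and 5778 without a filter, 6547 and 4795 with a filter of 5 rpm, 7256 and 5440 with isoforms summed, and 6715 and 5012 when only the 6 wild type libraries were fitted. edgeR called 7761 higher and 7226 lower and DESeq2 7227 and 7670 on their own scales. The genotype difference was less stable: its 308 higher and 314 lower calls ran from 195 to 368 and from 158 to 431 when 1 library was left out, the lower count was 164 without both wild type libraries that stand apart, and edgeR called 185 and 161 against 308 and 333 by limma on the deposited scale; the cause was not tested. With a replicate block it called 273 and 262. The correlations of same-numbered deviations were 0.0521, 0.0326 and -0.101. These values do not show whether same-numbered libraries were handled together, which was not tested. Among the 286 genes chosen by the naming rule, 6730 of 6846 repeats kept the call in its direction or again had none. Of the rest, 99 lost the call, 16 gained it and 1 reversed. For genes that stayed without a call, direction was not checked. The reversal was in LHCB1.1, at -0.86 and not called. LHCB1.1 was at 1.78 without the 3 libraries that stand apart, an alternative chosen after seeing the data (the cause was not tested). Of the list counts, 109 of 1776 repeats moved by more than 1.5 times. Of the list medians, 184 of 888 repeats moved by more than 1 SD between the libraries of a group.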
